A study of Mus musculus with 4 samples.

Results

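The genes described here encode receptors for interleukins, interferons and colony-stimulating factors in T helper 2 (Th2) cells of the mouse lung. They were taken from 1 deposited table of 11883 genes by symbol alone: every interleukin receptor gene (symbols such as Il7r or Il1rl1), Il6st, the receptors for interferon alpha/beta and gamma, the numbered colony-stimulating factor receptors and the cytokine receptor-like factors. This gave 43 genes. Il1rn matched by its symbol although it encodes a secreted antagonist and not a receptor, and Il1r2 encodes a decoy receptor that binds interleukin-1 without signalling. The cells came from C57BL/6 mice given papain chronically. Papain is an enzyme from papaya that acts as an airway allergen. Control mice were Gata3(fl/fl), in which Cre recombinase can cut the Gata3 gene, and the other group was Klrg1Cre Gata3(fl/fl), called Klrg1Cre below, with 2 samples in each group. Both groups therefore carry floxed Gata3, and no group carried the Cre alone, so a loss of Gata3 in the Th2 cells, its loss in other cells of these mice and the Cre allele itself cannot be told apart. Klrg1, the gene for which the Cre is named, is known from ILC2s (group 2 innate lymphoid cells) and from some effector and regulatory T cells. The sex and age of the mice and whether a sample came from 1 mouse or from several are not given in the labels. The sort took live CD4+ cells that also stained for T1/ST2, the interleukin-33 receptor encoded by Il1rl1, so the level of Il1rl1 was fixed in part by the sort and is no finding.

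Cytokine receptors are built from chains that are shared between several cytokines and chains that give specificity. Most interleukin and interferon receptors have no enzyme of their own and signal through Janus kinases (JAK) bound to their tails, which activate STAT transcription factors. Receptors of the interleukin-1 family instead carry a TIR domain and recruit MyD88 and IRAK kinases, and interleukin-17 receptors recruit the adaptor Act1, encoded by Traf3ip2. In type 2 inflammation of the lung, Th2 cells receive the epithelial signals interleukin-33, interleukin-25 (through Il17rb) and TSLP (through Crlf2 with Il7r), and depend on interleukin-2, interleukin-4 and interleukin-7 for growth, identity and survival.

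Per the file headers, the groups are named WT and ILC2 deficient in the deposited table. WT was read as control and the other as Klrg1Cre, a link the labels do not state. Where a pair of deposited means is given without group names, the Klrg1Cre mean comes first, and a pair of libraries is given as the larger, then the smaller. Library totals worked out from the means were 33379572 and 31961572 reads for the control libraries and 26019065 and 14564426 reads for the Klrg1Cre ones. The precursor of ribosomal RNA, Rn45s, made up 51.4% of control and 67.1% of Klrg1Cre reads, and all other listed genes 17.8% and 18.2%. Of 14 T cell markers, 11 were listed. Cd4 had deposited means of 150.1 CPM (reads per 1000000 reads of the library) in control and 167.6 CPM in Klrg1Cre. Cd3e had 73.0 CPM in control and 76.6 CPM in Klrg1Cre. Of the 11, 5 had lower deposited means in Klrg1Cre, beside 49.4% of all genes, and 6 had higher ones. Thy1 and Zap70 were higher at an unadjusted p below 0.05 in the authors' test, and 0 were lower. Of all genes, 3.72% were higher and 3.37% lower at such a p. Gata3, the floxed gene and master regulator of Th2 cells, averaged 221.4 CPM in control but 293.9 CPM in the group read as Klrg1Cre (the authors' p = 0.0115, adjusted p = 0.551). Exons outside the floxed segment are counted too, so this level does not check the labels. Klrg1 averaged 48.4 CPM in control but 4.19 CPM in Klrg1Cre in the deposited table (adjusted p = 0.0701). Trac, Trbc1 and Trbc2 were not among the listed genes. These samples are bulk RNA, in which fewer cells of a type and less RNA per cell cannot be told apart. The deposited comparison has 2 samples a group, and the labels do not say that these are separate mice, so p-values reflect only the spread seen among these 4 samples, part of which may be technical.

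None of the 43 receptor genes passed the authors' test after adjustment over all genes. The smallest adjusted p of a member in the authors' deposited table was 0.268, for Il7r, where 7 of 11883 genes (0.0589%) passed 0.05. Without adjustment, 6 members (14.0%) had a p below 0.05 there, beside 7.09% of all genes. Of these, Il7r, Il2rb, Il1r2 and Il2ra had lower means in Klrg1Cre, and Il18r1 and Il12rb1 had higher means. This was 4 of 43 lower (9.30%) against 3.37% of all genes, and 2 of 43 higher (4.65%) against 3.72% of all genes. Any direction given below for a gene is therefore that of its mean, not a called change. Deposited means were lower in Klrg1Cre for 24 members and higher for 19, with a median log2 ratio (Klrg1Cre over control) of -0.015, beside 0.0053 for all genes. For the 31 members that averaged 5 CPM or more over both groups the median was -0.10, beside 0.018 for all genes of that level. All 6 genes with an unadjusted p below 0.05 were among these 31, where 4.08% of all genes of that level had such a p with a lower mean and 4.32% with a higher mean. Deposited means below 2 CPM were found for 8 members.

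**Figure D1:**
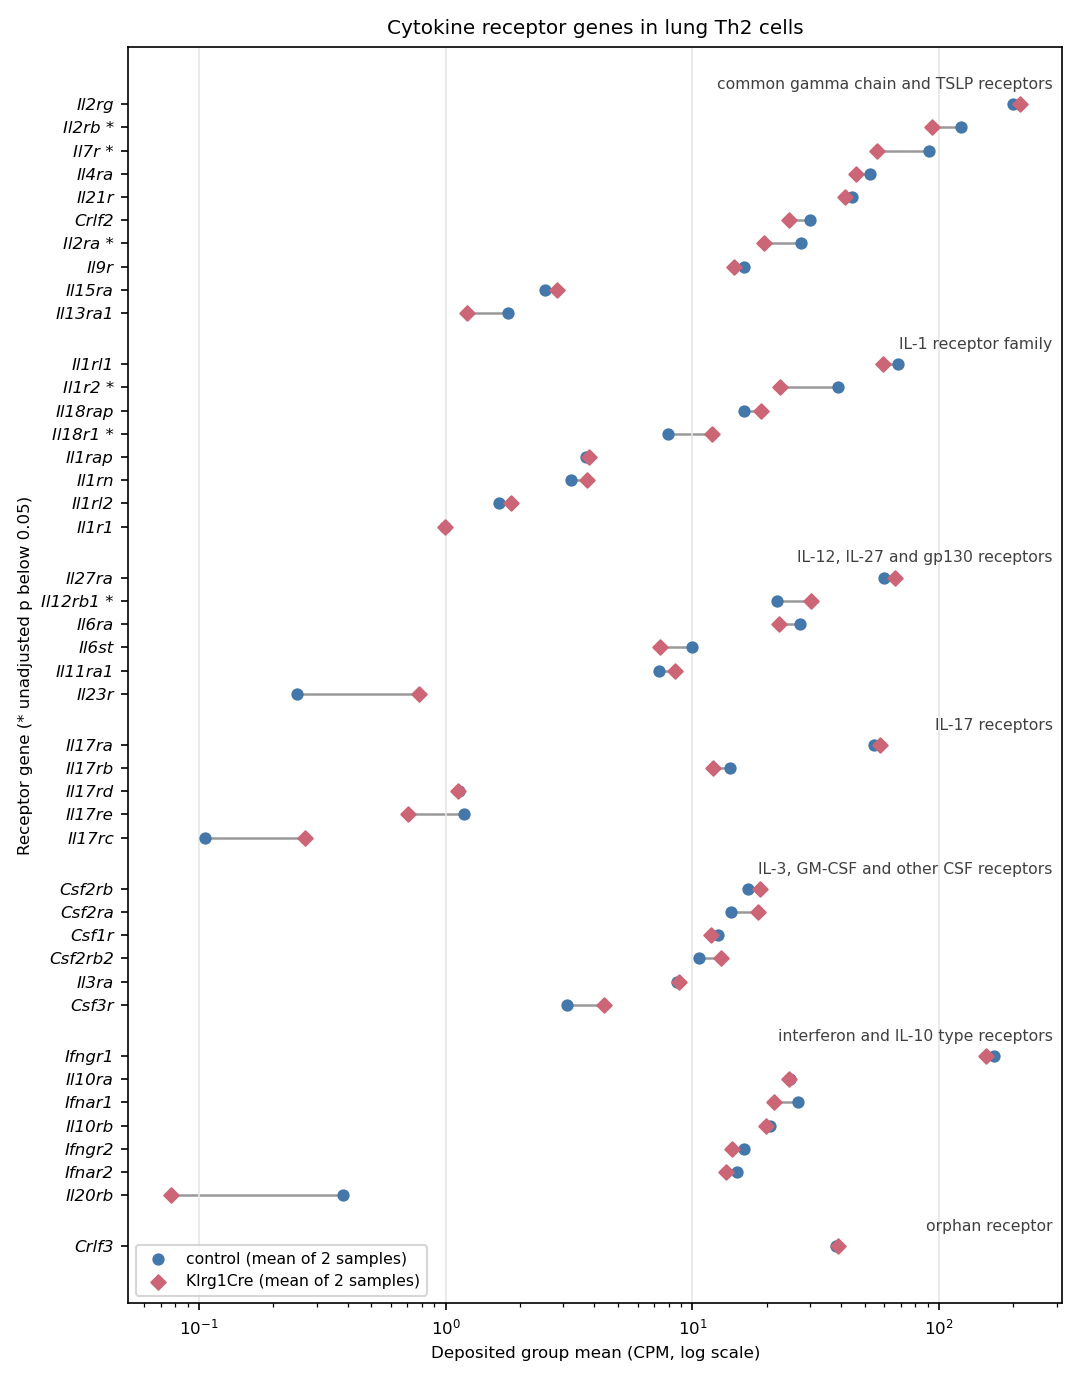
Deposited group means of the 43 receptor genes in CPM on a log axis, 1 row per gene and grouped by receptor family, with circles for control and diamonds for Klrg1Cre, each the mean of 2 samples. Most pairs lie close together, and wide gaps appear among genes below 2 CPM (Il23r, Il17rc, Il20rb) and at the starred genes such as Il7r and Il1r2, whose unadjusted p was below 0.05.

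**Figure D2:**
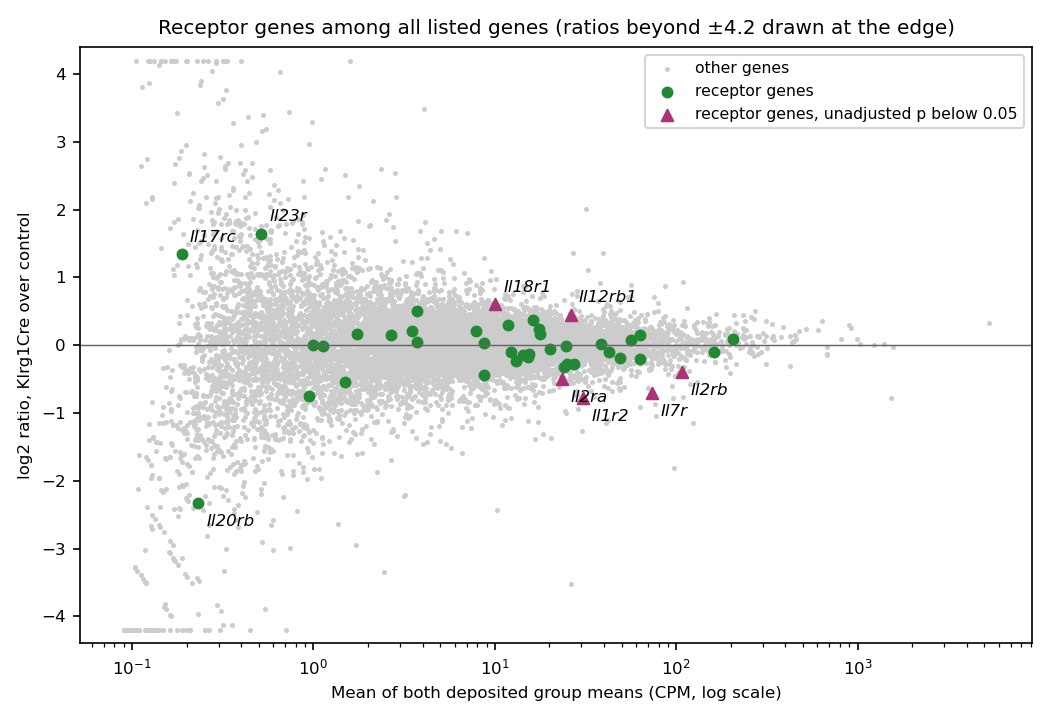
Log2 ratio of the deposited means (Klrg1Cre over control) against the mean of both groups in CPM on a log axis, with other genes in grey (Rn45s left out), receptor genes as green circles and the 6 receptor genes with an unadjusted p below 0.05 as purple triangles. These 6 have means of about 10 CPM or more and lie toward the edge of the grey cloud at their level, whereas the receptor genes with ratios beyond 2-fold, Il23r, Il17rc and Il20rb, are all below 1 CPM.

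The deposited table gives no value per sample, but whole reads of both libraries of a group could be worked out for 20 of the 43 genes. They are named by group as the larger and the smaller library, because which of them is sample 1 or 2 is unknown. Of these 20 genes, 10 had no overlap between the groups, a pattern seen in 37.6% of all recovered genes. In 6 of them (30%) the Klrg1Cre libraries were the lower ones, beside 18.3% of all 5351 genes recovered in this way. The 6 were Il2rb, Il2ra, Il6st, Ifnar1, Il10rb and Il20rb. In 4 of them (20%) they were the higher ones (Il12rb1, Il23r, Il27ra and Csf2ra), beside 19.3% of all recovered genes. With 2 libraries against 2, an exact two-sided permutation test cannot give a p below 0.333, so no such test was used. limma on the recovered libraries, with p adjusted over 4242 genes, gave 0 calls among 18 members with enough reads. Its lowest adjusted p for a member was 0.444, 3 members had an unadjusted p below 0.05 (Il2rb, Il12rb1 and Il2ra) beside 7.87% of all genes tested, and 7 of all 4242 genes (0.165%) passed 0.05.

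**Figure D3:**
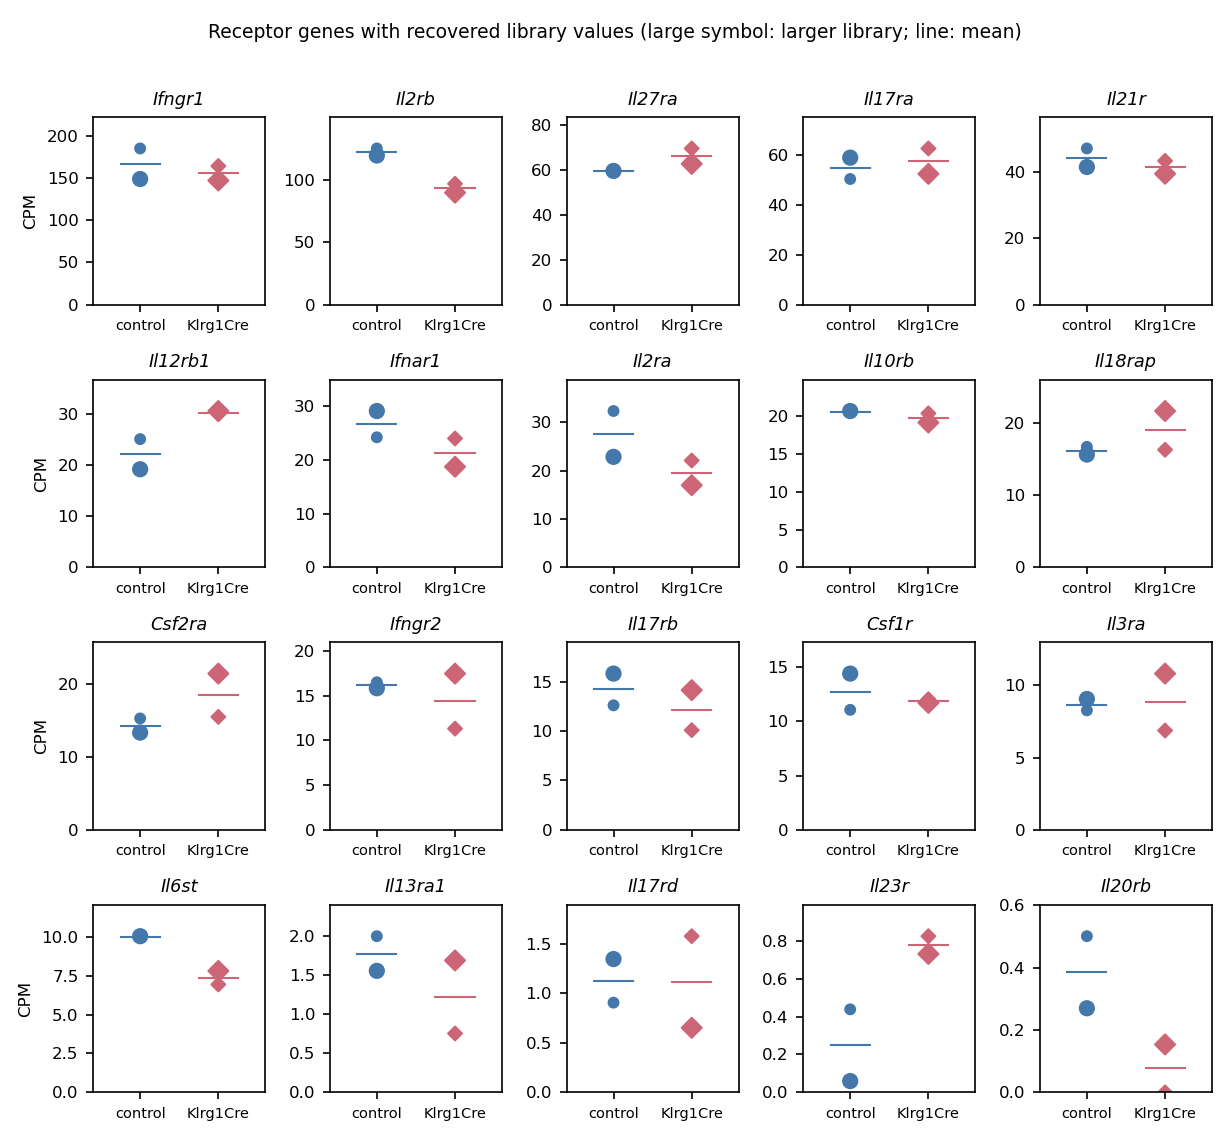
CPM in each library for the 20 receptor genes whose reads could be recovered, 1 panel per gene with its own axis from 0, circles for control, diamonds for Klrg1Cre, large symbols for the larger library of a group and lines for the group mean. The Klrg1Cre symbols lie below both control symbols for Il2rb, Il2ra and Il6st and above both for Il12rb1, while Ifngr1, Il21r and Il17ra overlap between groups.

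The receptors that share the common gamma chain, with the TSLP receptor and the Il13ra1 chain that pairs with Il4ra, had the lowest median of the families with more than 1 gene, and 8 of 10 had lower deposited means in Klrg1Cre, beside 49.4% of all genes. The median log2 ratio of the family was -0.23, and 3 of its 10 genes had an unadjusted p below 0.05, all with lower means, beside 3.37% of all genes with such a p and a lower mean. The alpha chain of the interleukin-7 receptor, Il7r, which sustains survival of naive and memory T cells and also forms the TSLP receptor, averaged 91.3 CPM in control but 56.1 CPM in Klrg1Cre in the deposited table. This was 1.63-fold lower, with a deposited p of 0.00126 and adjusted p of 0.268. The Il7r reads of single libraries could not be recovered, so its spread within a group is not known here. Its partner for TSLP, Crlf2, had deposited means of 24.7 against 29.8 CPM in control (1.21-fold lower, the authors' p = 0.0937, adjusted p = 0.740).

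The alpha and beta chains of the interleukin-2 receptor had lower means. Il2rb, the signalling beta chain shared with interleukin-15, held 89.6 CPM in the larger and 96.7 CPM in the smaller Klrg1Cre library, and 119.3 and 125.0 CPM in the control libraries. The groups did not overlap. Its deposited mean was 1.31-fold lower (the authors' p = 0.0104, adjusted p = 0.551). On the log2(CPM + 1) scale, limma gave a difference of -0.39 for Il2rb, with a 95% interval from -0.67 to -0.10 and an adjusted p of 0.444. The high-affinity alpha chain Il2ra, known as CD25 and high on regulatory T cells and activated T cells, held 16.99 and 22.11 CPM in the larger and smaller Klrg1Cre libraries and 22.9 and 32.4 CPM in the control libraries. The groups did not overlap, but the smaller Klrg1Cre library lay just below the larger control library. The deposited mean of Il2ra was 1.41-fold lower (the authors' p = 0.0424, adjusted p = 0.698). limma gave a difference of -0.47 for it, with a 95% interval from -0.91 to -0.024. Without the smaller control library the limma difference of Il2ra was -0.23 (unadjusted p = 0.335), and without the larger Klrg1Cre library -0.29 (unadjusted p = 0.184, adjusted p = 0.696). For Il2rb the limma difference was -0.35 without the smaller control library (unadjusted p = 0.0792, adjusted p = 0.977). The ratio of Il2ra to Il2rb reads within a library, which does not depend on scaling, was 0.192 and 0.259 in control and 0.190 and 0.229 in Klrg1Cre, so it overlapped between groups.

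The shared gamma chain itself and the other chains stood closer. Il2rg had deposited means of 211.7 and 198.9 CPM (1.06-fold higher, the authors' p = 0.490). Il4ra, the chain through which interleukin-4 and interleukin-13 signal to STAT6, had deposited means of 45.9 and 52.4 CPM (the authors' p = 0.219). Il9r, the receptor for interleukin-9, had deposited means of 14.8 and 16.1 CPM (the authors' p = 0.554). Il21r held 39.4 and 43.3 CPM in the Klrg1Cre libraries and 41.5 and 47.1 CPM in the control libraries. These groups overlapped, and the 95% limma interval for the difference of Il21r ran from -0.41 to 0.22. Il13ra1 was low, with 44 and 11 reads in the larger and smaller Klrg1Cre libraries and 52 and 64 reads in control. Il15ra, which presents interleukin-15 to neighbouring cells, had deposited means of 2.82 and 2.53 CPM.

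Markers of regulatory T cells, which carry high Il2ra and low Il7r, also had lower means. All 16 listed markers were in the table. Of these, 15, Il2ra itself among them, had lower deposited means in Klrg1Cre. At an unadjusted p below 0.05 there were 11, again with Il2ra, and 1, Itgae, passed the adjustment. Over all genes these shares were 49.4%, 3.37% and, in either direction, 0.0589%. Summed, they came to 1083 CPM in control but 722.0 CPM in Klrg1Cre in the deposited table, and Foxp3, the defining factor, had 50.6 against 104.6 CPM. Over the 5 markers with recovered libraries, Il2ra among them, the sums were 71.9 and 103.7 CPM in the larger and smaller Klrg1Cre libraries and 112.3 and 155.6 CPM in control. Of 17 markers of ILC2s, which include Il7r, Il2ra, Il17rb and Il9r, 15 were listed, with 5 lower and 4 higher at an unadjusted p below 0.05, beside 3.37% and 3.72% of all genes. The lower ones were Klrg1, Il7r, Ccr9, Arg1 and Il2ra, and the higher ones Nmur1, Id2, Kit and Calca. Summed deposited means of the 15 listed markers were 702.4 CPM in Klrg1Cre against 795.5 CPM in control. This sum holds the receptor genes Il7r and Il2ra themselves, and Klrg1, for which the Cre is named. Klrg1 had 4.19 against 48.4 CPM in control, Il7r 56.1 against 91.3 CPM and Il2ra 19.5 against 27.6 CPM. Of the 15, 9 had lower and 6 higher deposited means, so the sum is no measure of ILC2 content apart from these genes. Over the 7 with recovered libraries, Klrg1 and Il2ra among them, the sums were 501.2 and 393.2 CPM in the Klrg1Cre libraries. In control they were 488.4 and 482.7 CPM. The part of either cell type in the values of Il7r, Il2rb and Il2ra was not tested.

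To show the start regions of the genes at an unadjusted p below 0.05, the 250 bases before an annotated transcription start are printed for those with an entry in RefSeq's promoter table (GRCm38.p6). Il2rb and Il12rb1 had none. They run 5′ to 3′ on the gene's strand, and capitals mark 2 searched motifs on either strand: TTCNNNGAA, a palindrome bound by STAT factors, and GATAA, bound by GATA factors. For Il18r1, 3 starts are annotated and the most downstream is shown.
Il7r (chr15:9529877-9530126, minus strand): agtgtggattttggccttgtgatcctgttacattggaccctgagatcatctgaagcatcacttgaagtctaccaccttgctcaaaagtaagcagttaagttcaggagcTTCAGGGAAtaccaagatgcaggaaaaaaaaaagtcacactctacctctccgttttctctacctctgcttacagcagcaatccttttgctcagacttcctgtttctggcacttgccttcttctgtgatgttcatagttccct
Il2ra (chr2:11642542-11642791, plus strand): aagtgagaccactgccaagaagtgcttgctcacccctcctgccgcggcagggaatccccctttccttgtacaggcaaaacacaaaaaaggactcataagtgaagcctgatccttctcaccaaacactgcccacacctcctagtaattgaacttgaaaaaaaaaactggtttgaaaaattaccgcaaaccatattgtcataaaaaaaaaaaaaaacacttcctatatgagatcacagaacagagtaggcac
Il1r2 (chr1:40085843-40086092, plus strand): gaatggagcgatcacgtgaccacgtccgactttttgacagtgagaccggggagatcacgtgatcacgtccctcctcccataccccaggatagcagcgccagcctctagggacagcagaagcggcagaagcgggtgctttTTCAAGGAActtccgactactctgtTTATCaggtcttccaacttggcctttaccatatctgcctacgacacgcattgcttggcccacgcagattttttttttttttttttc
Il18r1 (chr1:40465756-40466005, plus strand): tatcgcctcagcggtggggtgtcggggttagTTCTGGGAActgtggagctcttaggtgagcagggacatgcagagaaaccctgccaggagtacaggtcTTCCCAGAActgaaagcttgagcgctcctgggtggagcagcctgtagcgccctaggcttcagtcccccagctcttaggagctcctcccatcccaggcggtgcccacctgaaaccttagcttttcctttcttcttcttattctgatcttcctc
Il7r had 1 STAT motif, 142 bases before its start. Il1r2 had a STAT motif 111 bases and a GATA motif 86 bases before its start. The Il18r1 window shown had 2 STAT motifs, 219 and 152 bases before the start, and its other 2 windows had neither motif. Il2ra had neither motif in this window. Over all 32851 windows of the same length in the table, 7.02% held the STAT motif and 22.6% the GATA motif. Among the 43 windows of the 35 receptor genes with an entry, 5 (11.6%) and 9 (20.9%) did. A match describes letters only and was not tested as a binding site.

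Among the interleukin-1 receptor family the decoy receptor Il1r2 and the interleukin-18 receptor stood out in opposite directions. Il1r2 averaged 38.8 CPM in control but 22.7 CPM in Klrg1Cre in the deposited table, 1.71-fold lower (the authors' p = 0.0421, adjusted p = 0.698). Il18r1, the ligand-binding chain for interleukin-18, a cytokine that promotes interferon gamma production, had deposited means of 12.1 and 7.94 CPM, 1.52-fold higher (the authors' p = 0.0135, adjusted p = 0.581). The reads of single libraries could be recovered for neither gene. The accessory chain of that receptor, Il18rap, held 21.6 and 16.3 CPM in the larger and smaller Klrg1Cre libraries and 15.6 and 16.7 CPM in control. The smaller Klrg1Cre library of Il18rap lay between the control libraries, and the 95% limma interval of its difference ran from -0.19 to 0.60. For the sort marker Il1rl1 the deposited means were 59.1 and 68.0 CPM, and for Il1rap, the accessory chain that it shares with the interleukin-1 receptor, 3.79 and 3.69 CPM. Il1r1, the signalling receptor for interleukin-1, was at 0.991 and 0.994 CPM, and Il1rl2, the interleukin-36 receptor, at 1.83 and 1.64 CPM in the deposited table. The antagonist gene Il1rn had deposited means of 3.74 and 3.22 CPM.

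These genes also share a position. In the RefSeq order of protein-coding genes, Il1r2, Il1r1, Il1rl2, Il1rl1, Il18r1 and Il18rap follow each other on chromosome 1 with no other protein-coding gene between them. The gene at 1 end of this row, Il1r2, had the lowest deposited ratio of the 6, 0.584, and Il18r1, the fifth, had the highest, 1.52. The remaining 4 had deposited ratios between 0.870 and 1.17, none with an unadjusted p below 0.05. Ifnar2, Il10rb, Ifnar1 and Ifngr2 form a second such row, on chromosome 16. All 4 deposited ratios there lay between 0.801 and 0.960, and none had an unadjusted p below 0.05. The other rows held 2 members each. Deposited ratios went opposite ways for Il2ra (0.708) and Il15ra (1.12) and for Il17re (0.595) and Il17rc (2.53). They went the same way for Csf2rb2 (1.24) and Csf2rb (1.12) and for Il4ra (0.876) and Il21r (0.935). A link between position and direction was not tested.

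In the family of receptors for interleukin-12, interleukin-23, interleukin-27 and the cytokines that use gp130, Il12rb1 had the only unadjusted p below 0.05. That was 1 of 6 genes, beside 7.09% of all genes. Il12rb1, the chain shared by interleukin-12 and interleukin-23, held 30.5 and 29.9 CPM in the larger and smaller Klrg1Cre libraries against 19.14 and 25.03 CPM in control. Both Klrg1Cre libraries lay above both control libraries, and the control libraries were farther apart than the Klrg1Cre libraries. The deposited mean was 1.37-fold higher (the authors' p = 0.0221, adjusted p = 0.612), and limma gave a difference of 0.45 with a 95% interval from 0.080 to 0.81. Without the larger control library the limma difference of Il12rb1 was 0.26 (unadjusted p = 0.189, adjusted p = 0.851). Il12rb2, the partner chain for interleukin-12, was not among the listed genes. Il23r, the partner chain for interleukin-23, was rare, with 19 and 12 reads in the larger and smaller Klrg1Cre libraries against 2 and 14 reads in control. Exact 95% Poisson intervals, which cover counting error only, were 11.4 to 29.7 and 6.20 to 21.0 reads in Klrg1Cre and 0.242 to 7.22 and 7.65 to 23.5 reads in control. Scaled to CPM, the interval of the larger control library for Il23r, 0.00726 to 0.216, lay below both Klrg1Cre intervals, 0.440 to 1.14 and 0.426 to 1.44. That of the smaller control library, 0.239 to 0.735, overlapped both, and the deposited p was 0.0624.

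Il27ra, the specific chain for interleukin-27, a cytokine that restrains T cell responses, held 62.8 and 69.6 CPM in the Klrg1Cre libraries and 59.6 CPM in each control library. Both Klrg1Cre libraries lay above the control libraries, by a small amount (deposited ratio 1.11, the authors' p = 0.276). Its partner Il6st, which encodes gp130, the signalling chain for interleukin-6, interleukin-27 and related cytokines, held 7.80 and 6.93 CPM in Klrg1Cre against 10.04 and 9.95 CPM in control. The groups did not overlap, and the deposited mean of Il6st was 1.36-fold lower (the authors' p = 0.0548, adjusted p = 0.705). The limma interval for Il6st ran from -0.81 to 0.016. The ratio of Il6st to Il27ra within a library was 0.168 and 0.167 in control and 0.124 and 0.0996 in Klrg1Cre, a pair of chains chosen after their values were seen. Il6ra, which gives gp130 its binding of interleukin-6, had deposited means of 22.5 and 27.3 CPM (the authors' p = 0.152), and Il11ra1 8.49 and 7.32 CPM. Il11ra1 has near-identical copies in the mouse genome between which reads can be split, so its level is uncertain.

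Of the interleukin-17 receptors, 0 of 5 had an unadjusted p below 0.05, beside 7.09% of all genes. Il17ra, the chain common to the family, held 52.4 and 62.6 CPM in the larger and smaller Klrg1Cre libraries and 58.9 and 50.4 CPM in control, so the groups overlapped. Il17rb, which binds interleukin-25, held 14.1 and 10.1 CPM in Klrg1Cre against 15.8 and 12.6 CPM in control, also with overlap, and its 95% limma interval ran from -0.68 to 0.23. Il17rc, Il17rd and Il17re had deposited means from 0.106 to 1.19 CPM. Il17rc rested on 5 and 2 reads in the control libraries. Il17rd had 17 and 23 reads in the larger and smaller Klrg1Cre libraries and 45 and 29 reads in control.

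The receptors for interleukin-3, GM-CSF and the other colony-stimulating factors had higher deposited means in Klrg1Cre for 5 of 6 genes. Higher deposited means were found for 6014 of all 11883 genes. In this family 0 genes had an unadjusted p below 0.05, beside 7.09% of all genes, and the median log2 ratio was 0.23. The GM-CSF receptor alpha chain, Csf2ra, held 21.4 and 15.4 CPM in the larger and smaller Klrg1Cre libraries and 13.3 and 15.2 CPM in control. The groups did not overlap, but the smaller Klrg1Cre library and the smaller control library almost coincided, and the deposited p was 0.111. The common beta chain Csf2rb had deposited means of 18.8 and 16.7 CPM (the authors' p = 0.819). Its paralogue Csf2rb2 had 13.1 and 10.6 CPM (the authors' p = 0.912). Reads shared between this near-identical pair cannot be assigned with certainty. Il3ra held 10.8 and 6.87 CPM in the Klrg1Cre libraries, on both sides of the control libraries at 9.05 and 8.26 CPM. Its deposited ratio was 1.02 (the authors' p = 0.983). Csf1r, a receptor tyrosine kinase that marks macrophages and monocytes, held 11.7 and 12.0 CPM in Klrg1Cre, between the control libraries at 14.4 and 11.0 CPM. Csf3r, which marks neutrophils, had deposited means of 4.37 and 3.10 CPM (the authors' p = 0.412).

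Several of these receptors are characteristic of myeloid cells and not of T cells, and other myeloid transcripts were present. All 20 macrophage and monocyte markers were listed, with sums of 1930 and 2732 CPM in the deposited table, most of it from Chil3 at 1124 and 1932 CPM. Of the 20, 13 had lower deposited means in Klrg1Cre, beside 49.4% of all genes, and 7 had higher ones. Lyz2 had deposited means of 395.9 and 364.0 CPM. Marco was listed at 0 in control and held only 0.538 and 0.0687 CPM in the larger and smaller Klrg1Cre libraries. Over the 10 of these markers with recovered libraries, Csf1r among them, the sums were 61.1 and 43.7 CPM in the larger and smaller Klrg1Cre libraries and 60.5 and 60.4 CPM in control. Of 14 granulocyte and mast cell markers 6 were listed, with sums of 14.9 and 13.3 CPM in the deposited table. Of 10 B cell markers 5 were listed, with sums of 5.57 and 6.78 CPM. Ms4a1 was listed at 0 in Klrg1Cre and held only 0.030 and 0.375 CPM in the larger and smaller control libraries. Epithelial, endothelial and stromal markers, 7 of 14 listed, had deposited sums of 29.5 and 22.4 CPM. The part of these cells in the values of the receptor genes was not tested.

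The receptors for interferons and for cytokines of the interleukin-10 type had lower deposited means in Klrg1Cre for all 7 genes, with 0 at an unadjusted p below 0.05 and a median log2 ratio of -0.15. Lower deposited means were found for 49.4% of all genes, and 7.09% of all genes had such a p in either direction. Ifngr1, the ligand-binding chain for interferon gamma, held 146.9 and 164.0 CPM in the larger and smaller Klrg1Cre libraries and 148.6 and 184.7 CPM in control. The groups overlapped for Ifngr1, and its limma interval ran from -0.42 to 0.23. Ifngr2, the second chain, held 17.5 and 11.3 CPM in Klrg1Cre, on both sides of the control libraries at 15.8 and 16.5 CPM. Ifnar1, a chain of the receptor for interferon alpha and beta, held 18.76 and 24.03 CPM against 29.15 and 24.25 CPM in control. The smaller Klrg1Cre library lay just below the smaller control library, and the deposited p of Ifnar1 was 0.103. Ifnar2 had deposited means of 13.6 and 15.1 CPM (the authors' p = 0.556). Il10ra, the specific chain of the interleukin-10 receptor, had deposited means of 24.6 and 24.8 CPM (the authors' p = 0.871). Its partner Il10rb held 19.2 and 20.4 CPM in Klrg1Cre against 20.7 and 20.5 CPM in control, a gap smaller than the spread between the Klrg1Cre libraries. Il20rb had 4 and 0 reads in the larger and smaller Klrg1Cre libraries and 9 and 16 reads in control (the authors' p = 0.101), and the exact 95% Poisson interval of the 0 reads reached 3.69 reads. Crlf3, an orphan receptor-like gene that belongs to none of these families, had deposited means of 38.9 and 38.3 CPM (the authors' p = 0.925).

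Levels of different receptors were compared per kilobase of transcript, taking for each gene the longest principal coding transcript of GENCODE M21. On the scale of CPM per kilobase, averaged over both deposited means, Il2rg was the highest at 122.9, followed by Ifngr1 at 76.2, Il2rb at 25.7 and Il27ra at 23.6. Il1r2 came next at 21.7, Il7r at 20.8 and Crlf2 at 20.6. In control, Il1r2 and Il7r stood at 27.3 and 25.8 CPM per kilobase, and in Klrg1Cre at 16.0 and 15.9. Il1rl1 had 12.0 CPM per kilobase, Il4ra 9.36 and Il17rb 6.39. At the low end, Il1rap, the accessory chain for Il1rl1, had 0.828 and Il1r1 0.171 CPM per kilobase, and Il6st had 1.00 where Il27ra and Il6ra (7.45) were higher. With the union of all exons as the length, 9 of the 10 highest genes were the same, but Il6ra moved to 2.88 and Il1rap to 0.435 CPM per kilobase. Transcript lengths in these cells were not measured, and genes that give several transcripts, such as Il1rl1 with its soluble form, are the least certain.

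The other genes of these pathways came from lists of ligands, kinases, inhibitors and adaptors, and 0 of their members passed adjustment in the deposited table. Of 48 cytokine ligand genes 19 were listed. Deposited means were higher in Klrg1Cre for 16 of them, beside 6014 of all 11883 genes. At an unadjusted p below 0.05, 6 were higher and 0 lower, beside 3.72% higher and 3.37% lower of all genes. The median log2 ratio of the 19 was 0.48. Of the 19, 9 averaged below 2 CPM over both groups, where depth limits the ratios. Among ligands with a mean of at least 5 CPM, 3 in place of 6 had such a p with a higher mean. The 6 were Il13, Il5, Il1b, Il21, Osm and Lif. Il13 held 11.3 and 13.5 CPM in the Klrg1Cre libraries and 6.68 and 5.98 CPM in control, and Il5 8.92 and 15.8 CPM against 5.003 and 5.162 CPM, both without overlap (deposited adjusted p = 0.265 and 0.289). These are the type 2 cytokines of mucus production and of eosinophils. Il21, the ligand of Il21r, had deposited means of 1.69 and 0.533 CPM (adjusted p = 0.551). Il1b, which encodes interleukin-1 beta, had 3.27 and 1.79 CPM in the larger and smaller Klrg1Cre libraries and 0.419 and 0.469 CPM in control, with a deposited adjusted p of 0.268. Its decoy receptor gene Il1r2 had the lower mean in Klrg1Cre, as given above. Osm, encoding oncostatin M, a ligand that signals through gp130, had 20.2 and 21.3 CPM in Klrg1Cre against 14.9 and 15.8 CPM in control (deposited adjusted p = 0.613). Lif, a further gp130 ligand, had deposited means of 3.10 and 1.39 CPM. The most abundant listed ligand was Il16 at 74.0 and 86.9 CPM. Il2 had deposited means of 1.09 and 0.272 CPM (the authors' p = 0.399). It held 0.115 and 2.06 CPM in the larger and smaller Klrg1Cre libraries and 0.449 and 0.0939 CPM in control. The groups overlapped, and the higher mean came from the smaller Klrg1Cre library. Il7, Il33, Il25 and Tslp were not among the listed genes.

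Of 11 JAK and STAT genes, 10 had lower deposited means in Klrg1Cre, beside 49.4% of all genes, and the median log2 ratio was -0.094. Jak3, the kinase bound to the common gamma chain, had deposited means of 125.1 and 127.1 CPM, and Stat3 112.6 and 124.3 CPM. Among 17 SOCS and other inhibitor genes, 2 passed an unadjusted p of 0.05, both with the higher mean in Klrg1Cre. Of all genes, 3.72% had such a p with a higher mean and 3.37% with a lower mean. Cish, which is induced by STAT5 and limits interleukin-2 signalling, had deposited means of 99.3 and 73.8 CPM (1.34-fold higher, the authors' p = 0.0114, adjusted p = 0.551). Ptpn6, encoding the phosphatase SHP-1, had 50.02 and 32.87 CPM (1.52-fold higher, adjusted p = 0.374). Of 16 adaptors and kinases of interleukin-1 and interleukin-17 receptors, Irak3, an inhibitory member of its kinase family, had the 1 unadjusted p below 0.05. Its deposited means were 5.23 and 2.59 CPM (adjusted p = 0.465). Over all genes, 7.09% had an unadjusted p below 0.05 in either direction. Myd88 held 30.6 and 35.3 CPM in the Klrg1Cre libraries and 30.3 and 34.1 CPM in control, and Traf3ip2 had deposited means of 9.77 and 9.38 CPM.

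**Figure D4:**
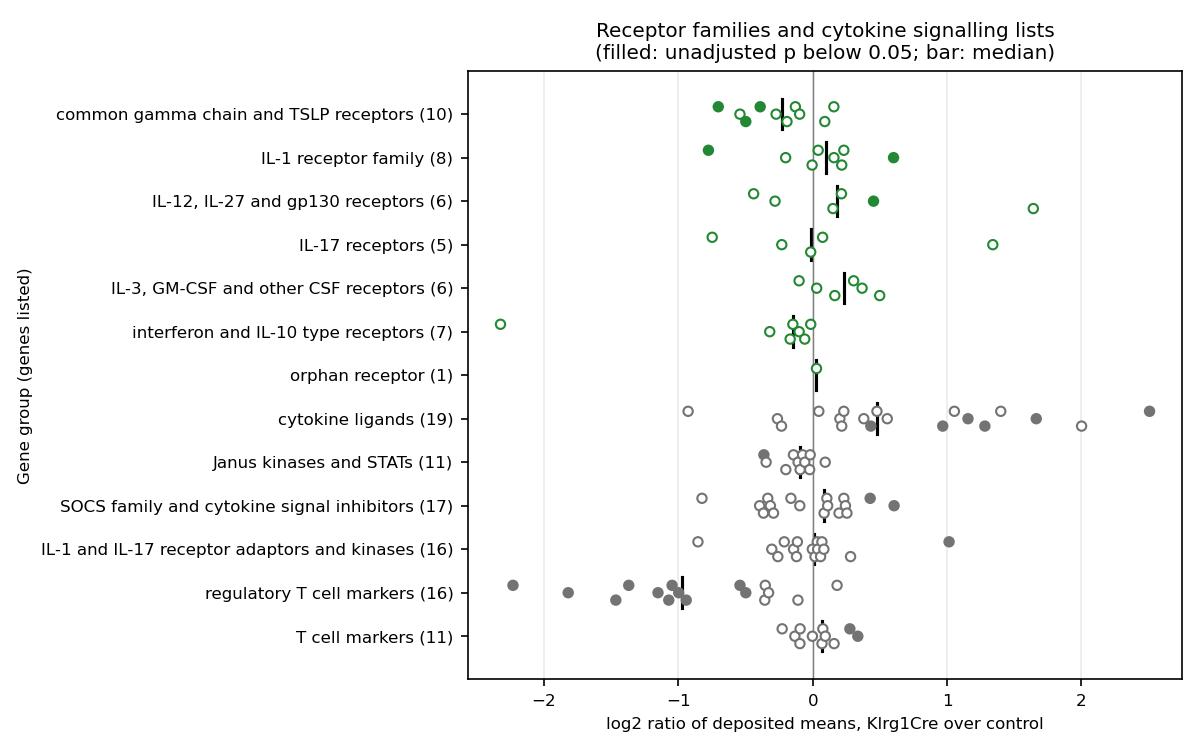
Log2 ratio of the deposited means (Klrg1Cre over control) for each gene of the 7 receptor groups in green and of the signalling and marker lists in grey, with the number of genes listed in parentheses, filled symbols for an unadjusted p below 0.05 and a bar at the median. The common gamma chain family and the regulatory T cell markers lie mostly left of 0, with medians of -0.23 and -0.97, and the cytokine ligands mostly right, with a median of 0.48.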

How the data were processed

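RNA of sorted lung Th2 cells from 4 samples in 2 genotypes was sequenced. Reads were handled with STAR and Partek on the mm9 build, per the submitters' processing notes, in which no version is named. The model behind the p-values and any filter on genes are not given in the sources used here. The table deposited by the authors holds group means in CPM (counts scaled to the library total, with 0.0001 added), p-values with their Benjamini-Hochberg adjustment over 11883 genes, the ratio of the means, a signed fold change (another form of the ratio) and a summed signal that was not used. All fold changes, means and p-values called deposited are the authors'.

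The CPM unit was inferred from the values: the deposited means could be written as whole reads of 2 libraries, to within 1e-09 reads and in only 1 way, for 47.0% of genes in control and 49.0% in Klrg1Cre, and for 45.0% in both. Means above 20000 CPM were not tried. Because most genes were not recovered, no count model was fitted and the authors' test is the main one. limma 3.58.1 in R 4.3.3, with a trended variance on log2(CPM + 1), was run on the 4242 recovered genes that averaged 1 CPM or more. Across genes, which are not independent replicates, the Spearman correlation between its p-values and the deposited ones was 0.998. Both steps were also run on simulated data, and the outcome is not given here.

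Reads outside the listed genes were 30.8% in control and 14.7% in Klrg1Cre. Depth limits genes below 2 CPM. The receptor genes and lists were chosen with earlier results of these data known. Named genes are those at an unadjusted p below 0.05, the 10 with the highest means, and a fixed set of Th2-related receptors, and the others are given more briefly. A result on 1 gene of the signalling lists is not reported here. RefSeq and GENCODE M21 served for names, lengths, order and start regions. The alternatives tried were other pseudocounts, filters, scalings, adjustments and leaving out each recovered library.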

Additional observations from a re-analysis of the deposited data

How the results depend on the processing

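The count of 0 receptor genes at an adjusted p below 0.05 also held with adjustment over genes of at least 5 CPM (lowest adjusted p 0.180). With limma on all 4 recovered libraries it was 0 of 18 members, which do not include Il7r, Il18r1 or Il1r2. Among members with recovered libraries, 3 had an unadjusted p below 0.05. With limma leaving out 1 library at a time this count ranged from 1 to 5, that of lower means from 0 to 3 and that of higher means from 0 to 2. Without the smaller control library, Il12rb1 alone was below 0.05 and Il2rb and Il2ra were not. Without the larger control library Il12rb1 was not, and without the larger Klrg1Cre library Il2ra was not and Ifngr2 was. Without the smaller Klrg1Cre library Ifnar1 and Csf2ra were added. In these fits the lone library of a group is assumed to vary like the other group. The share of all tested genes below 0.05 in each of these fits is not given here. Whether these counts of receptor genes differ from the rate among other genes in the same fit was therefore not tested. The median log2 ratio of the receptor genes was -0.10 over members of at least 5 CPM against -0.015 over all, and between -0.041 and -0.012 under both pseudocounts, the 1 CPM filter and both other scalings. With a mean of at least 5 CPM, 3 cytokine ligands passed an unadjusted p of 0.05 with a higher mean in place of 6, and 0 adaptors in place of 1. Of 24 named receptor genes, 5 changed the sign of their log2 ratio under some alternative (Crlf3, Csf1r, Ifngr1, Ifngr2 and Il17ra), none of them at an unadjusted p below 0.05. Leaving out a library could be tried only for the 12 named genes with recovered libraries, and so not for Il7r, Il1r2 or Il18r1. The others were tried only with a pseudocount of 1 CPM and the scaling without Rn45s. Scaling to the recovered reads of genes other than Rn45s left 6 members whose Klrg1Cre libraries were the lower ones without overlap and 3 in which they were the higher ones, since Csf2ra then overlapped. No paired analysis was possible because the deposited columns are group means that carry no sample numbers.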
